A study of Homo sapiens with 4 samples.

Results

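The genes described here are 10 genes of the hypoxia-inducible factor (HIF) pathway: HIF1A and EPAS1, which encode the oxygen-regulated alpha subunits, ARNT, which encodes their constant partner, the prolyl hydroxylase genes EGLN1, EGLN2 and EGLN3, the asparaginyl hydroxylase gene HIF1AN, the ubiquitin ligase receptor gene VHL, and the HIF target genes CA9 and BNIP3. They were chosen by name, not by measured values, out of 19970 protein-coding genes, but with earlier results of these data known. Every peak that overlapped one of these genes or lay within 50 kb of it was taken, which gave 46 of the 56875 peaks of one list and 20 of the 40332 peaks of the other. The peaks mark histone H3 lactylated at lysine 9 (H3K9la), mapped by ChIP-seq in KYSE30, an established line of human oesophageal squamous cell carcinoma cells. The labels list 4 samples, which are 1 ChIP and 1 input library per arm, in arms called sg3 and V2. All were grown in one medium, and the sources used here do not say what the arm names mean. The series title names SIRT3 as an eraser of the mark. Each arm has 1 peak list, so every difference between the lists compares 2 libraries and has no replicate check, and no p-value was computed.

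In the presence of oxygen, EGLN enzymes hydroxylate prolines of the HIF alpha subunits, VHL binds the hydroxylated proteins and they are degraded. HIF1AN hydroxylates an asparagine and so limits the recruitment of coactivators. When oxygen is low, the alpha subunits build up, pair with ARNT and bind DNA at a short core motif near genes of glycolysis, pH control, blood vessel growth and mitophagy. Glycolysis makes lactate, the metabolite from which histone lactylation takes its name. EGLN3, CA9 and BNIP3 are well known HIF targets, and EGLN1 is also induced by hypoxia in many cells.

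The starts of these genes fell into 3 patterns. HIF1A and EGLN2 had a peak within 1 kb of a start in both lists. EPAS1, ARNT and VHL had one in the sg3 list only, for VHL at its lower-coordinate end. EGLN1, EGLN3, HIF1AN, CA9 and BNIP3 had none in either list. A peak at the start was seen for 5 of 10 genes in sg3 and 2 of 10 in V2, while over all protein-coding genes the shares were 47.2% and 28.7%. The split by pattern was 2 in both lists, 3 in sg3 only and 0 in V2 only, against 28.3%, 18.9% and 0.441% of all protein-coding genes. At this number of genes the member counts lie near the background. With only peaks of at least 4-fold enrichment kept, EGLN2 lost its V2 peak and EPAS1 its sg3 peaks at the start. A gene without a peak has none past the authors' threshold, and the sources used here do not state the read depth behind the lists, so they do not show that the mark is missing there.

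The bases just before the start are shown for 6 of the genes, to set starts with a peak (HIF1A, EPAS1, ARNT and EGLN2) beside the starts of the target genes CA9 and BNIP3, which had none. Each is the 250 bases before the first start in the table, read 5′ to 3′ in the direction of transcription, from RefSeq on build GRCh38.p14. Capitals mark the HIF core motif, ACGTG or GCGTG, or its reverse complement CACGT or CACGC. A match is a description of the letters and not a bound site.
HIF1A (chr14:61695263-61695512, plus strand): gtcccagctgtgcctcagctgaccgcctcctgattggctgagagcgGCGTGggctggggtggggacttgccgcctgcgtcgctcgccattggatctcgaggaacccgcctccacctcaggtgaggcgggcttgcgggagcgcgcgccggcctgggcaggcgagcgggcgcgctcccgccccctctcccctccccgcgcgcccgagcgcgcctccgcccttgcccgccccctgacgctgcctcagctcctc
EPAS1 (chr2:46297157-46297406, plus strand): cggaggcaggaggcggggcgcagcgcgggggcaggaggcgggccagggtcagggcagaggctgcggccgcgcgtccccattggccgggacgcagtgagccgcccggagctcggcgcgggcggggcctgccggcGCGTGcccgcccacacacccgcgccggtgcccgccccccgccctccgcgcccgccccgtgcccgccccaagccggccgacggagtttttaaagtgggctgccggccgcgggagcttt
ARNT (chr1:150876600-150876849, minus strand): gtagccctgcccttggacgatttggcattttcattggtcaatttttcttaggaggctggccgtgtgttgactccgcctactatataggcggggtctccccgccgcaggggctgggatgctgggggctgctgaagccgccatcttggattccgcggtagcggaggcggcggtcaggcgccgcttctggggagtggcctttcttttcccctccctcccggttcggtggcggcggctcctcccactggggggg
EGLN2 (chr19:40798941-40799190, plus strand): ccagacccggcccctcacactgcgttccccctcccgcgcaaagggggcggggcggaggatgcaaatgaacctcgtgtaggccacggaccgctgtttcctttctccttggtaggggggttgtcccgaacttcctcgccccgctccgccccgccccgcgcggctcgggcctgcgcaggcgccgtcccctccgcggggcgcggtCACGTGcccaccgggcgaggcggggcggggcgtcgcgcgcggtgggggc
CA9 (chr9:35673678-35673927, plus strand): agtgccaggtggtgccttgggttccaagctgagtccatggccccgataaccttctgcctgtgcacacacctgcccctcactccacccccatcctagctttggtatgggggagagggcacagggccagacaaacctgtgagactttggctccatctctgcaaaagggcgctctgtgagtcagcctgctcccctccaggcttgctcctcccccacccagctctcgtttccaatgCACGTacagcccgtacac
BNIP3 (chr10:131981924-131982173, minus strand): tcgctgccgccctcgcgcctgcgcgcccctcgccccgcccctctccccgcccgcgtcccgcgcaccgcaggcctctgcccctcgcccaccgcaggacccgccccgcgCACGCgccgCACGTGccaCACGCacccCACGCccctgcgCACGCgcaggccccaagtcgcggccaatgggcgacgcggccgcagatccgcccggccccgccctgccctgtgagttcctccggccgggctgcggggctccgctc
The BNIP3 stretch held 6 matches, of which 2 are the strands of 1 palindrome. The EGLN2 stretch held 2, which are also the strands of 1 palindrome, and the ARNT stretch 0. HIF1A, EPAS1 and CA9 had 1 match each. Of 22131 starts of protein-coding genes, 49.3% had at least 1 match in the same stretch.

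**Figure D1:**
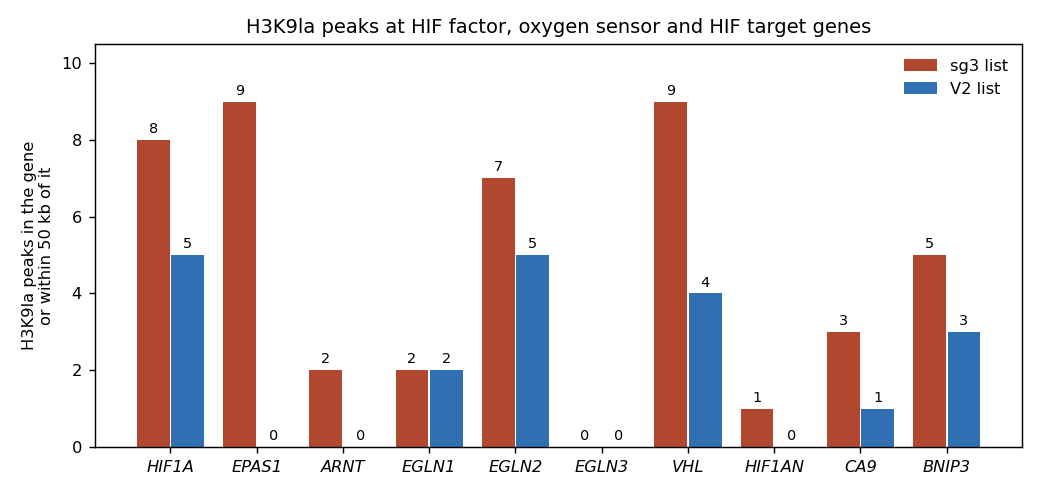
Number of H3K9la peaks (y axis) in each of the 10 genes or within 50 kb of it (x axis), in the sg3 list (red bars) and the V2 list (blue bars), 1 library each. EPAS1 and VHL had 9 sg3 peaks, EGLN3 had 0 in both lists, and only EGLN1 had equal numbers above 0, with 2 in each.

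Around these genes the sg3 list held more peaks than the V2 list. The 46 sg3 peaks against 20 V2 peaks give a ratio of 2.30, and the ratio of the whole lists was 1.41. The sg3 peaks covered 2.43% of the bases in the 10 windows and the V2 peaks 0.913%. The median gene of the 10 had 2.13% of its window covered in sg3 and 0.486% in V2, and the median over all protein-coding genes was 1.37% and 0.488%. The V2 median of the members thus lay at the background. With lists of equal length, in which the sg3 list was cut to its 40332 peaks of highest -log10 q, the counts were 28 and 20, a ratio of 1.40. The whole lists then hold equally many peaks by construction, so this ratio has no counterpart in the 1.41 above. With a -log10 q of at least 10 in both lists they were 25 and 7, a ratio of 3.57. With peaks within 1 kb merged the counts were 33 and 18, a ratio of 1.83. The whole-list ratio was not computed for the -log10 q cut or the merged peaks. EPAS1 alone gave 9 of the sg3 peaks and 0 of the V2 peaks. More sg3 than V2 peaks were thus counted in each of these settings, but the size of the difference was not stable.

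An sg3 peak lay within the window of 9 of 10 genes, and a V2 peak within that of 6 of 10. Over all protein-coding genes these shares were 78.3% and 64.4%, so the members again lay near the background. The number per gene ran from 0 to 9 in sg3 and from 0 to 5 in V2, while the median protein-coding gene had 3 sg3 peaks (interquartile range 1 to 8) and 1 V2 peak (0 to 5). Of the 46 sg3 peaks, 17 overlapped a V2 peak by at least 1 base, which is 37.0% (exact Clopper-Pearson 95% CI 23.2 to 52.5%), against 52.4% in the whole sg3 list. Of the 20 V2 peaks, 18 overlapped an sg3 peak, which is 90% (95% CI 68.3 to 98.8%), against 86.3% in the whole V2 list. Both intervals reach the share of the whole list. They cover counting error only, and peaks of 1 locus are not independent.

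**Figure D2:**
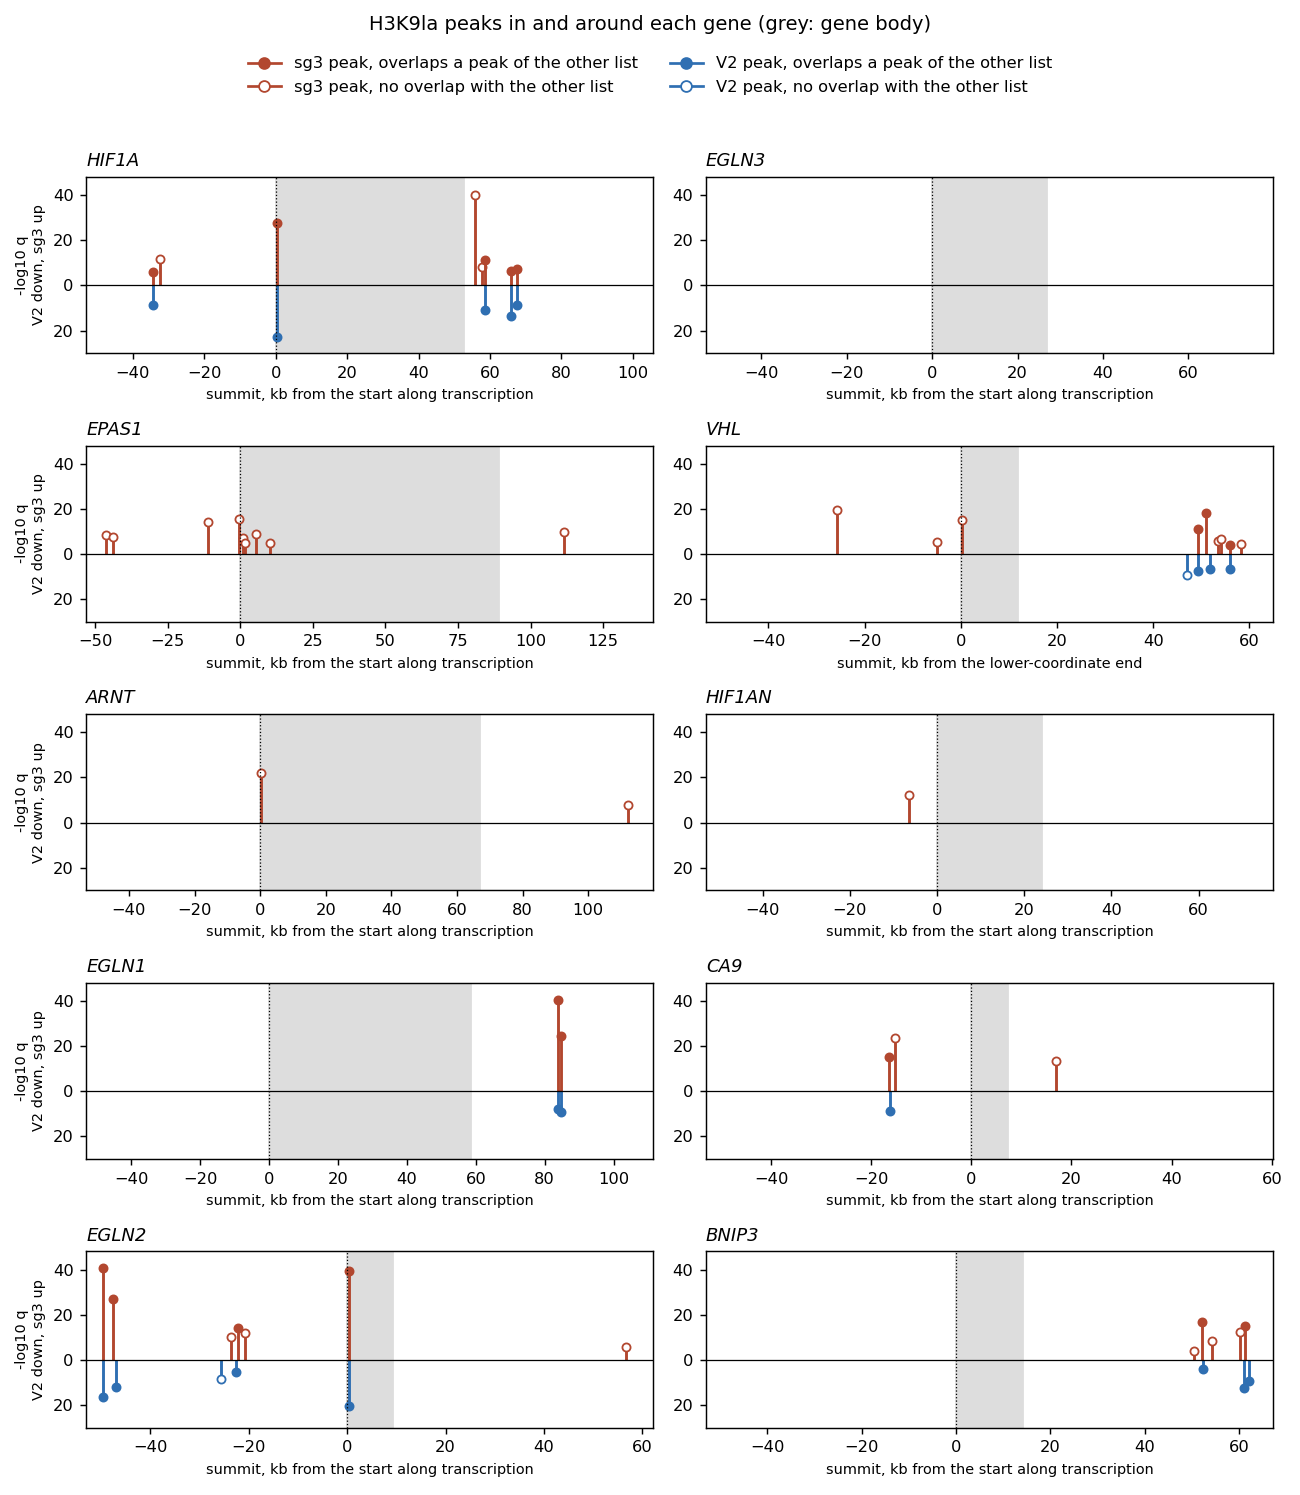
Summit of each peak in kb from the gene's start along transcription (x axis, for VHL from its lower-coordinate end) against its -log10 q (y axis, sg3 upward and V2 downward from 0), with the gene body in grey. Filled points overlap a peak of the other list and open points do not. HIF1A and EGLN2 have a filled pair at the start, the 9 EPAS1 peaks are all open sg3 peaks, and the peaks around EGLN1, CA9 and BNIP3 lie outside the gene body.

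HIF1A (chromosome 14, 61695513 to 61748258) carried a peak at its start in both lists. The sg3 peak ran from 61695567 to 61696327, and its fold enrichment, the peak caller's ratio of ChIP signal to background as the authors deposited it, was 4.13, at a -log10 q of 27.5. The V2 peak ran from 61695606 to 61696196 (fold enrichment 4.19, -log10 q 22.8). These peaks are nearly the same stretch: their summits lay 27 bases apart, at 367 and 340 bases after the start. Each stood at a like place in its own list, above 78.0% of sg3 peaks and 76.8% of V2 peaks by -log10 q. The start of the antisense RNA gene HIF1A-AS1 lies under the same peaks, so they belong to both genes. No peak lay in the rest of the gene body, and the other start in the table, at 61697712, had none within 1 kb.

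Beyond its far end HIF1A had the strongest sg3 peak of its window. It ran from 61751103 to 61751626 (fold enrichment 7.04, -log10 q 40.1), above 87.4% of sg3 peaks. No V2 peak overlapped it, and the nearest V2 peak was 2.16 kb away. This peak lies just upstream of the start of HIF1A-AS3, another antisense RNA gene, which runs against HIF1A and overlaps it. Peaks at SNAPC1, a gene for a subunit of the small nuclear RNA activating complex, were found in both lists, with fold enrichments of 3.25 and 3.05 in sg3 and of 6.08 and 4.10 in V2, values that are not on a common scale. Of the 8 sg3 peaks around HIF1A, 5 had a V2 partner, and each of the 5 V2 peaks had an sg3 partner.

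EPAS1 (chromosome 2, 46297407 to 46386697), which encodes the HIF-2 alpha subunit, had 9 sg3 peaks and 0 V2 peaks in its window. A peak from 46296474 to 46297107 (fold enrichment 3.53, -log10 q 15.3) ended 300 bases before the start, and a second from 46297962 to 46298478 (2.79 and 7.01) began 555 bases after it. The start itself lay between these peaks and was covered by neither. A further 3 peaks lay in the first 10468 bases of the gene, with fold enrichments of 2.43, 3.88 and 4.10, and 3 lay upstream in the long noncoding RNA gene LOC101926974. The last lay past the far end of the gene, in the noncoding gene LOC124907762. The highest fold enrichment of the window, 6.22, was that of the upstream peak from 46286295 to 46286720, 10687 bases before the start.

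The EPAS1 peaks were modest in the sg3 list. Their -log10 q values ran from 4.65 to 15.3, and the highest stood above 57.2% of sg3 peaks. None of the 9 overlapped a V2 peak. The nearest V2 peak to the gene lay 54.8 kb away, just outside the window, and 2 V2 peaks lay between 50 and 75 kb. Of 19970 protein-coding genes, 6 had no V2 peak within 50 kb and 9 or more sg3 peaks, which is 0.0300%. That count was made after the EPAS1 values were seen, and it depends on where the window ends.

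ARNT (chromosome 1, 150809713 to 150876599, transcribed toward lower coordinates) had a single peak at the gene, at its start. The sg3 peak from 150876193 to 150876598 covered bases 1 to 406 after the start, with its summit at 153, a -log10 q of 21.8 and 4.45 as its fold enrichment. It stood above 70.6% of sg3 peaks. The V2 list had no peak in the window, and its nearest one lay 97.7 kb from the gene. The other sg3 peak of the window lay inside CTSS, the gene of the lysosomal protease cathepsin S, with a fold enrichment of 3.97.

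The 3 prolyl hydroxylase genes differed from one another. EGLN2 (chromosome 19, 40799191 to 40808434) had a start peak in both lists, EGLN1 had peaks only near other genes, and EGLN3 had none at all. At EGLN2 the sg3 peak ran from 40799197 to 40800020 (fold enrichment 5.83, -log10 q 39.5). The V2 peak ran from 40799216 to 40800019 with 3.81 and 20.5. Their summits lay 9 bases apart, at 338 and 347 bases after the start, and the peaks stood above 87.0% and 72.7% of their own lists. The read-through gene RAB4B-EGLN2 runs across this site, so the peaks lie in its body too.

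The other peaks of the EGLN2 window lay mostly at starts of its neighbours. The strongest was the sg3 peak of 2311 bases from 40748171 to 40750481 (fold enrichment 7.57, -log10 q 40.5), at the starts of ACTMAP and SNRPA, of which SNRPA encodes a protein of the U1 small nuclear ribonucleoprotein. A V2 peak of 1471 bases (5.70 and 16.6) lay inside it, with its summit 6 bases from that of sg3. Between SNRPA and EGLN2, peaks at MIA and RAB4B had fold enrichments of 4.07, 4.63 and 3.34 in sg3, and 3.42 in V2 at MIA. A V2 peak from 40773344 to 40773895 (3.99) had no sg3 partner, and it was 1 of the 2 V2 peaks without one in all 10 windows.

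EGLN1 (chromosome 1, 231363756 to 231422287), which encodes the main prolyl hydroxylase of HIF in most cells, had no peak in its body or at its start. Both of its sg3 peaks and both of its V2 peaks lay past its far end, at the back-to-back starts of EXOC8, a gene of the exocyst complex, and SPRTN, a DNA repair protease gene. The sg3 peak on the SPRTN side had a fold enrichment of 10.1, the highest of all 46, with a -log10 q of 40.6. Its V2 partner had 3.76 and 7.67, which stood above 22.9% of the V2 list, where the sg3 peak stood above 87.7% of its own. The summits were 7 bases apart. This pair lay 83.5 kb from the EGLN1 start, and its place at other starts gives no reading for EGLN1.

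EGLN3 (chromosome 14, 33924227 to 33951074) was the only one of the 10 genes with no peak of either list in its window. Its nearest sg3 peak lay 91.8 kb away and its nearest V2 peak 109.0 kb away. Having no peak of either list within 50 kb was common, with 4228 protein-coding genes, or 21.2%.

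HIF1AN (chromosome 10, 100535943 to 100559998) had 1 sg3 peak in its window and 0 V2 peaks. That peak, from 100529119 to 100529859 (fold enrichment 5.06, -log10 q 12.2), lay at the start of NDUFB8, a respiratory chain subunit gene, 6.08 kb before HIF1AN. The nearest V2 peak lay 163.0 kb away. No peak lay on HIF1AN itself.

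VHL (chromosome 3, 10141778 to 10153667) was searched at both ends. It had an sg3 peak of 1003 bases at its lower-coordinate end, from 10141798 to 10142800 (fold enrichment 4.25, -log10 q 15.1), above 56.4% of sg3 peaks. The nearest V2 peak lay 34.8 kb from the gene. BRK1, the gene of an actin regulator subunit, likewise had a start peak in sg3 alone (fold enrichment 6.57, -log10 q 19.3). A weaker sg3 peak (3.74) lay between BRK1 and VHL. The other peaks formed a cluster within the body of IRAK2, an interleukin receptor kinase gene, with 6 sg3 peaks (fold enrichments from 2.62 to 6.03) and 4 V2 peaks (from 3.76 to 5.70). This cluster holds each V2 peak of the window, and 3 of the 4 had an sg3 partner.

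Neither HIF target gene had a peak on it. CA9 (chromosome 9, 35673928 to 35681159) encodes a cell-surface carbonic anhydrase that acts in pH control. Its nearest peaks lay 9.35 kb away in sg3, upstream of TPM2, a tropomyosin gene, and 16.1 kb away in V2, overlapping the noncoding RNA gene RMRP. The V2 peak at RMRP (fold enrichment 4.56) overlapped an sg3 peak (4.97), and both also lay within 1 kb of the start of the adjoining gene CCDC107. Another sg3 peak at that start (6.30, with a -log10 q of 23.7) had no V2 partner.

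BNIP3 (chromosome 10, 131967684 to 131981923), a mitophagy receptor gene, had its nearest peaks 35.3 kb away in sg3 and 37.9 kb away in V2. All 5 sg3 peaks and 3 V2 peaks of its window lay in the body of PPP2R2D, a regulatory subunit gene of protein phosphatase 2A that overlaps the far end of BNIP3. An sg3 peak of 3088 bases, the widest of the 46, held a whole V2 peak of 650 bases and most of another of 377 bases. Here the mark was found in both lists in the neighbour's body, and in neither list at the BNIP3 start.

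**Figure D3:**
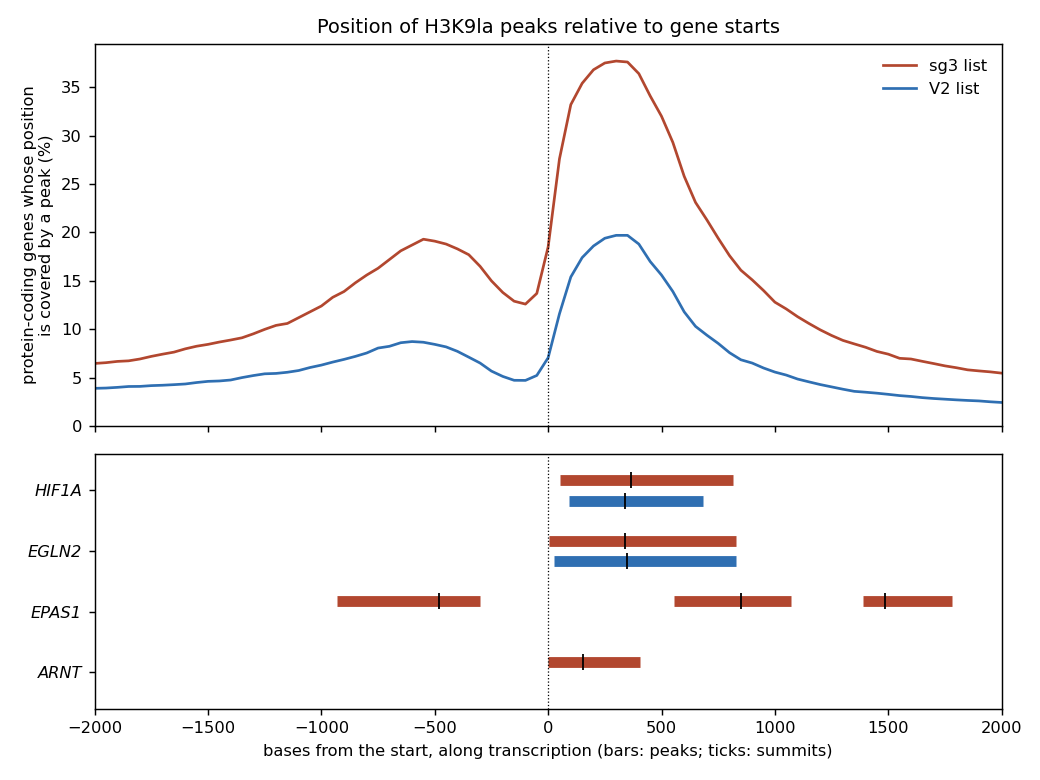
Upper panel: share of 15811 protein-coding genes (y axis, %) whose position at a given distance from the start (x axis, bases along transcription, steps of 50) is covered by a peak of the sg3 list (red) or V2 list (blue). Lower panel: the peaks of HIF1A, EGLN2, EPAS1 and ARNT as bars on the same axis, with summits as black ticks. The HIF1A, EGLN2 and ARNT peaks begin within 93 bases after the start, and the EPAS1 peaks leave the start uncovered.

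The start peaks of HIF1A, EGLN2 and ARNT lay on the transcribed side of the start, and the first start of the gene was covered in none of them. The other EGLN2 start in the table, at 40799522, lies within both peaks of that gene. Over 15811 protein-coding genes with a start in the table, coverage was highest 300 bases after the start in both lists, at 37.7% in sg3 and 19.7% in V2. It was lower at the start itself, at 18.5% and 7.06%, and had a second, smaller maximum before it (19.3% at 550 bases in sg3, 8.73% at 600 bases in V2). The summits of HIF1A (367 and 340), EGLN2 (338 and 347) and ARNT (153) were on the side of the larger maximum. EPAS1 had a summit on either side, 482 bases before and 852 bases after the start.

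The genes whose start peak was in sg3 only had weaker sg3 peaks than the genes with a start peak in both. The best sg3 start peak had a -log10 q of 15.1 at VHL, 15.3 at EPAS1 and 21.8 at ARNT, against 27.5 at HIF1A and 39.5 at EGLN2. The same order held over all protein-coding genes, with a median of 14.8 for the 3775 genes in sg3 only and 37.4 for the 5644 genes in both lists. Of 1585 protein-coding genes whose best sg3 start peak had a -log10 q of 15 to 22, 58.5% had no V2 start peak. Of 4474 genes with 27 or more, 11.7% had none. The range of 15 to 22 was drawn around the values of EPAS1, ARNT and VHL after they were seen, and ARNT lies at its upper end, so the share need not hold at the strength of each gene.

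**Figure D4:**
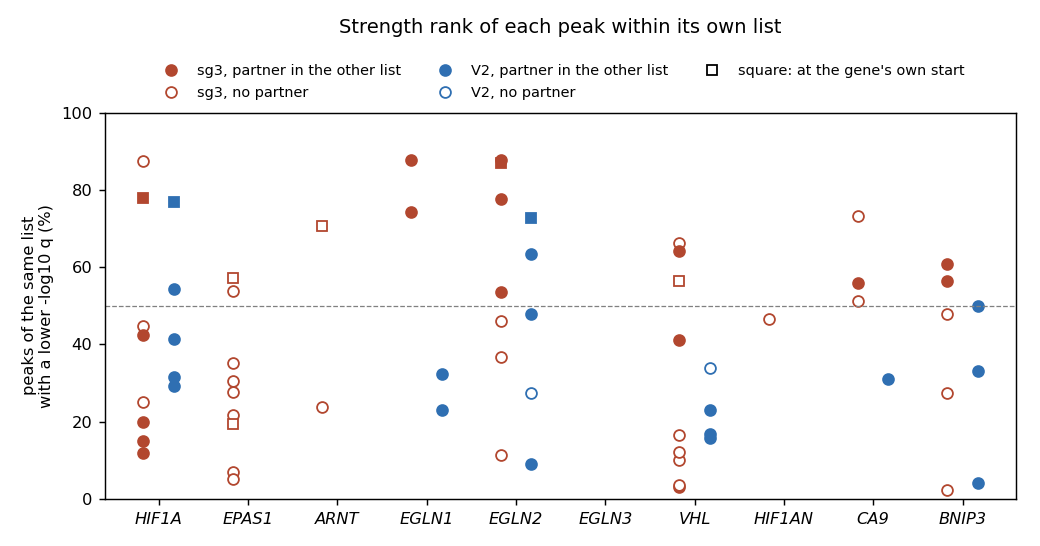
Share of the peaks of the same list that have a lower -log10 q (y axis, %) for each peak around each gene (x axis), sg3 in red and V2 in blue, filled where a peak of the other list overlaps, with squares for peaks at the gene's own start. The dashed line marks 50%. No peak lies above 90%, and the squares of HIF1A and EGLN2 lie between 72.7% and 87.0%.

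By -log10 q, no peak around these genes stood above 90% of its own list. By fold enrichment 1 sg3 peak did, the one at the SPRTN side of the EXOC8 and SPRTN starts, which stood above 92.4%. The sg3 peaks had a median fold enrichment of 4.28 (range 2.35 to 10.1) and a median -log10 q of 11.4, where the whole list had medians of 4.97 and 13.0. The V2 peaks had a median fold enrichment of 4.32 (3.25 to 6.98) and a median -log10 q of 8.98, where the whole list had 5.22 and 12.6. The 17 sg3 peaks with a V2 partner had a median fold enrichment of 4.97 and a median width of 761 bases, and the 29 without had 4.10 and 506 bases.

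Peaks were paired between the lists by overlap, so the pairs share bases by definition. In the 18 pairs the summits lay from 6 to 808 bases apart, with a median of 36.5 bases. They were within 200 bases in 14 pairs, and in the other 4 they lay 514, 571, 760 and 808 bases apart. The sg3 peak was the wider one in 16 of the 18 pairs, and the other two were at HIF1A and in IRAK2. The widest sg3 peak, near BNIP3, is counted in 2 of these pairs. In the whole lists sg3 peaks were also wider, with a median of 618 bases against 560 in V2. The share of pairs with a wider sg3 peak was not computed over the whole lists. Only 6 of the 46 sg3 peaks and 2 of the 20 V2 peaks lay at the start of one of the 10 genes, or for VHL at its end. Starts of other protein-coding genes held 14 sg3 and 8 V2 peaks, bodies of other protein-coding genes away from a start 12 and 7, and bodies of the 10 genes away from a start 3 sg3 peaks, all in EPAS1. The rest lay at other gene types or outside genes. The same placement was not computed for the whole lists, so these counts describe the windows only.

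**Figure D5:**
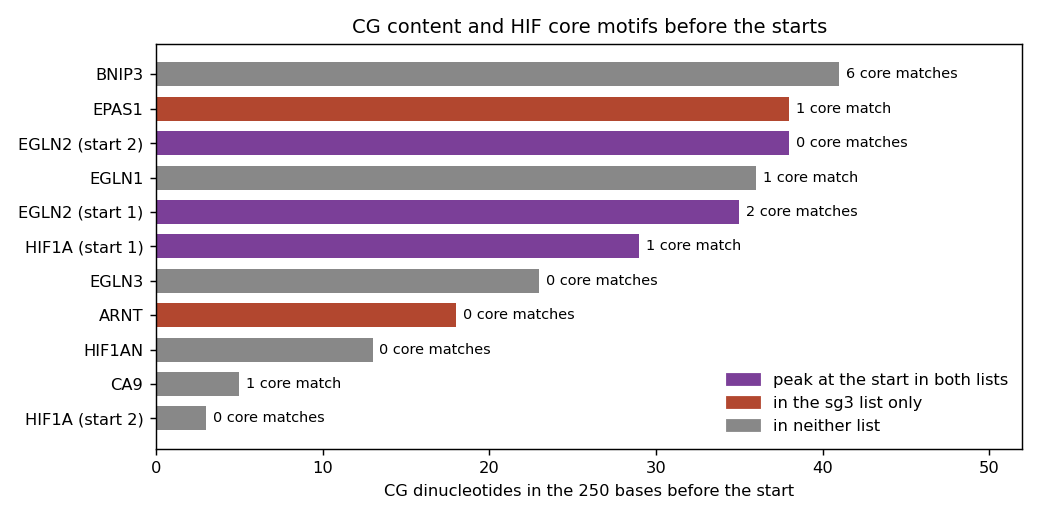
Number of CG dinucleotides in the 250 bases before each start (x axis) for the 11 starts of 9 of the genes in the promoter table (y axis), with the number of HIF core matches written beside each bar. Colours give a peak within 1 kb of that start in both lists, in sg3 only or in neither. BNIP3 has the most CG dinucleotides (41) and core matches (6, strands of a palindrome counted separately) and no peak at its start.

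CG-rich starts carried H3K9la peaks more often over all protein-coding genes. The 22131 starts were ranked by the CG dinucleotides in the 250 bases before them and split into 3 equal groups. In the richest group (22 to 59 CG dinucleotides), 65.0% had an sg3 peak and 41.5% a V2 peak. In the middle group (9 to 22) these shares were 56.1% and 32.5%, and in the poorest (0 to 9) 18.1% and 10.3%. Of the 11 starts of the members, 4 of 7 in the richest group, 1 of 2 in the middle group and 0 of 2 in the poorest had an sg3 peak. In V2 these were 3 of 7, 0 of 2 and 0 of 2. Both EGLN2 starts are in the richest group and lie at the same peak in each list, so it was counted for each. With that peak counted for 1 EGLN2 start only, the richest and middle groups had the same share in sg3. BNIP3 had 41 CG dinucleotides, more than 97.8% of starts hold, and no start peak. EGLN1 had 36 and EGLN3 had 23, also without one, and EPAS1 had 38, EGLN2 35 and HIF1A 29 at their first starts, with one. ARNT had a start peak in sg3 with 18, near the median of 16. CA9 had 5, and HIF1AN had 13.

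The HIF core motif went with little difference in peaks once CG content was considered. In the CG-richest group, 66.3% of starts with a core match and 62.4% of starts without one had an sg3 peak. In the middle group these shares were 56.2% and 56.0%, and in the poorest 20.2% and 17.4%. For V2 peaks they were 42.4% and 39.8% in the richest group, 32.5% and 32.5% in the middle, and 11.4% and 9.95% in the poorest. Among the 9 genes with a start in the table, HIF1A, EPAS1 and EGLN2 had a match and a start peak, EGLN1, CA9 and BNIP3 had a match and no start peak, ARNT had a peak without a match, and EGLN3 and HIF1AN had neither.

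Other regulators of HIF mostly had a start peak in both lists. Of 16 such genes, 13 had one in sg3 and 11 in V2, with 2 in sg3 only and 0 in V2 only. The shares over all protein-coding genes were 47.2% and 28.7%. ARNT2 and ELOC, counted in both lists, had no start in the promoter table and were searched at both ends. Their peaks may thus lie at the far end of the gene. The highest -log10 q values were at EP300 (fold enrichment 8.95 in sg3 and 6.62 in V2) and CREBBP (5.96 and 3.51), the acyltransferase coactivators of HIF, RBX1 (8.51 and 6.85), the RING subunit of the VHL ubiquitin ligase, and RACK1 (7.06 and 5.35), a ribosomal scaffold protein. NEDD8, the ubiquitin-like activator of cullin ligases (8.71), and P4HTM, a membrane-bound prolyl hydroxylase (2.75), had one in sg3 only. HIF3A, which encodes a further alpha subunit, CITED2, which competes for the coactivators, and OS9 had none. With a -log10 q of at least 10, or a fold enrichment of at least 4, 7 of the 16 kept a V2 start peak. The peaks of a gene counted in both lists need not overlap. At ELOC the sg3 peak (73971655 to 73972146) and the V2 peak (73970753 to 73971361) did not. The strongest HSP90AA1 start peaks of the lists also lay apart, from 102087349 in sg3 and from 102140153 in V2. No test was made of this list of regulators against the 10 genes. This list, like that of the targets below, was drawn up with earlier results of these data known.

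Most HIF target genes outside the 10 also carried start peaks. Of 32 such genes, 26 had a start peak in sg3 and 19 in V2, with 19 in both, 7 in sg3 only and 0 in V2 only. A gene counted in both need not have overlapping peaks. The strongest start peaks of LDHA, ALDOA and PFKFB4 lay apart between the lists. Over all protein-coding genes 47.2% had a start peak in sg3, 28.7% in V2, 28.3% in both and 18.9% in sg3 only, so the count in sg3 only lies near the background. Among the highest -log10 q values were those of ANGPTL4, an inhibitor of lipoprotein lipase (fold enrichment 17.3 in sg3 and 13.6 in V2), ANKRD37 (8.89 and 6.87), and TFRC, the transferrin receptor (5.16 and 4.22). In sg3 only, PGK1, a glycolytic kinase (8.78), INSIG2, a sterol sensor (7.08), AK4 (4.29) and PDK1 (3.97) led by -log10 q. AK4 is a mitochondrial adenylate kinase, and PDK1 is a kinase that inhibits pyruvate dehydrogenase. VEGFA, SLC2A3, NDRG1 and BNIP3L were among the targets searched at both ends, so their counted peaks may lie at the far end. A start peak was found in neither list for 6 targets, among them LOX, KDM4B, CA12 and EPO. CA12, a relative of CA9, and LOX had no peak of either list within 50 kb. PGK1 has near-identical copies in the genome and its values are uncertain, since the sources used here do not state how reads with more than 1 alignment were handled.

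As a check of the labelled cell type, all 10 squamous epithelial markers had an sg3 start peak and 8 of 10 a V2 start peak. Of 24 markers of endothelium, fibroblast, blood and liver, 3 had one in sg3 and 1 in V2. The shares over all protein-coding genes were 47.2% and 28.7%. A peak at a start does not measure expression, so the peaks at the HIF genes give no level of their transcripts.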

How the data were processed

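H3K9la ChIP-seq of KYSE30 cells gave 1 peak list for each of 2 arms. Per the submitters' processing notes, MACS2 2.2.9.1, Bowtie2 2.5.1, SAMtools 1.18, Trim Galore 0.6.10 and FastQC 0.12.1 were used with build hg38. The sources used here do not state their settings, the control library or the depth. The V2 list, deposited with the input sample of V2, was taken as the list of that arm. Fold enrichment (a ratio), -log10 p and -log10 q, the integer score and the summit offset are the authors' deposited values, with a smallest -log10 q of 2.02 in sg3 and 2.009 in V2. Fold enrichment and -log10 q describe or rank peaks within 1 list only.

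Gene positions came from RefSeq (GRCh38.p14). A start peak has any base within 1 kb of a start in the RefSeq promoter table. That table held 15811 of the 19970 protein-coding genes of chromosomes 1 to 22 and X, and the other 4159, VHL among them, were searched at both ends. Peaks were shared at 1 base of overlap. Python 3.11.15, pandas 2.3.3, numpy 2.4.6 and scipy 1.17.1 were used, and the overlap code was tested on simulated intervals. With 1 library per arm no test between arms was made. The 10 genes, the other gene lists, the windows and the naming rule (from each pathway list, up to 4 genes per pattern, by -log10 q or, with no peak, in list order) were chosen with earlier results of these data known. Alternatives changed the thresholds, the list lengths, the windows, the merging distance, the part of a peak that counts and the overlap. The rule named 1 further target gene, which is not reported here.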

Additional observations from a re-analysis of the deposited data

How the results depend on the processing

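Of 70 values recomputed under other settings, 54 stayed within 1.5 times the reported count and 16 moved further. With a -log10 q of at least 10, the peaks around the 10 genes numbered 25 in sg3 and 7 in V2, those with a partner 6 and 6, and the regulators with a V2 start peak 7. With a fold enrichment of at least 4 these were 29 and 13, 7 and 8, and 7, and the members with a V2 start peak fell from 2 to 1, as EGLN2 was below it, while EPAS1 had no sg3 start peak. With a window of 25 kb the peaks numbered 25 and 8, those with a partner 8 and 8. With lists of equal length the sg3 count was 28. Fewer peaks or a smaller window explain these lower counts by construction. Apart from a fold enrichment of at least 4, each start pattern of the 10 genes was the same under each threshold, list length and start window tried. No paired analysis was possible because each arm has 1 ChIP library. The lists carry no read depth, so a gene without a peak may have signal under the threshold.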
